A study of Mus musculus with 12 samples.

Results

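Transcripts whose levels were ordered from wild-type thymus through pre-leukemic thymus to thymic tumor, or which peaked or dipped in the pre-leukemic thymus, were picked out of 17829 transcript clusters, the array's unit for a gene. A cluster was stepwise up when its lowest pre-leukemic array lay above its highest wild-type array and its lowest tumor array lay above its highest pre-leukemic array, and stepwise down in the reverse case. It was a pre-leukemic peak when all 4 pre-leukemic arrays lay above the other 8, and a pre-leukemic trough when they lay below them. In all, 384 clusters met one of these rules. There were 273 stepwise up, which is 1.53% of all clusters, 33 stepwise down (0.185%), 66 peaks (0.37%) and 12 troughs (0.0673%). These classes were chosen from the measured values themselves, so the order of the groups is a description and carries no test. The contrast of tumor with wild type is given with limma for peaks and troughs, and as counts of calls for list genes outside the stepwise classes. The peak and trough rules do not order tumor against wild type, but they use the values of both groups. They limit how far tumors can lie above wild type in a peak or below it in a trough, so the direction of these calls is partly set.

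The samples were whole thymus and thymic tumor of female mice of the sdl model. Wild-type thymus came from Mcm4 (+/+) mice at 21 days, pre-leukemic thymus from Mcm4 (D573H/+) mice of the same age, and thymic tumors from moribund Mcm4 (D573H/+) mice. Mcm4 belongs to the ring-shaped helicase that opens DNA at replication forks, and the allele is carried in every tissue of the heterozygote. Each group had 4 arrays, and each array held RNA pooled from 3 organs, so a value is an average over animals. The pools of a group are described as biological replicates. The 3 groups are different animals and not a course followed in the same mice, and tumors differ from the 21-day groups in age as well as in disease.

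The thymus is where T cells form. Precursors that lack the CD4 and CD8 coreceptors depend on Notch signals from cortical epithelium, divide rapidly, pass through a stage with both coreceptors, and are then selected. T-cell acute leukemia and lymphoma arise from these precursors, and in mice they often carry activated Notch1 and inactive Ikzf1. Growth of such cells draws on new ribosomes, on purines and pyrimidines and on the replication machinery.

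Some properties of the arrays bear on every count below. Values are log2 of the deposited normalized intensity, and 1 unit is a 2-fold difference. Replicates correlated at 0.983 to 0.996 across clusters, and no more than 5 values were identical between any pair. Pre-leukemic replicates 1 and 2 and tumor replicates 2 and 3 had the narrowest spread of values, with interquartile ranges of 2.56 to 2.76 log2 units against 2.84 to 3.17 on the other arrays. Pre-leukemic replicate 3 lay nearest to wild type at the median of each class. Without it, the clusters with all remaining pre-leukemic arrays above wild type numbered 1487 and those below 1407, against 651 (3.65%) and 139 (0.78%) with it. Stepwise classes without this array held 455 clusters up and 372 down, against 273 and 33 with it. The size of the excess of stepwise up over stepwise down thus depended on this array. Peaks numbered 306 and troughs 200 without it, and 181 and 51 without pre-leukemic replicate 4. The small classes also grew by more than 1.5 times without other single arrays: stepwise down held 52 clusters without pre-leukemic replicate 1 or 2, 73 without replicate 4, and 87 and 67 without wild-type replicates 3 and 4. Peaks held 120 without pre-leukemic replicate 1 and 106 without wild-type replicate 4. Troughs held 24 and 27 without pre-leukemic replicates 1 and 2, 21, 29 and 28 without wild-type replicates 2 to 4, and 19 without tumor replicate 3. An array that is left out can add members but cannot remove any. The scaling of the arrays mattered as well. After quantile normalization 140 of the 273 stepwise up members stayed in the class and after median centring 109, with 75 in the class under every scaling. The matching numbers were 15, 14 and 9 of 33 for stepwise down, 36, 20 and 15 of 66 for peaks, and 5, 7 and 3 of 12 for troughs.

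**Figure D1:**
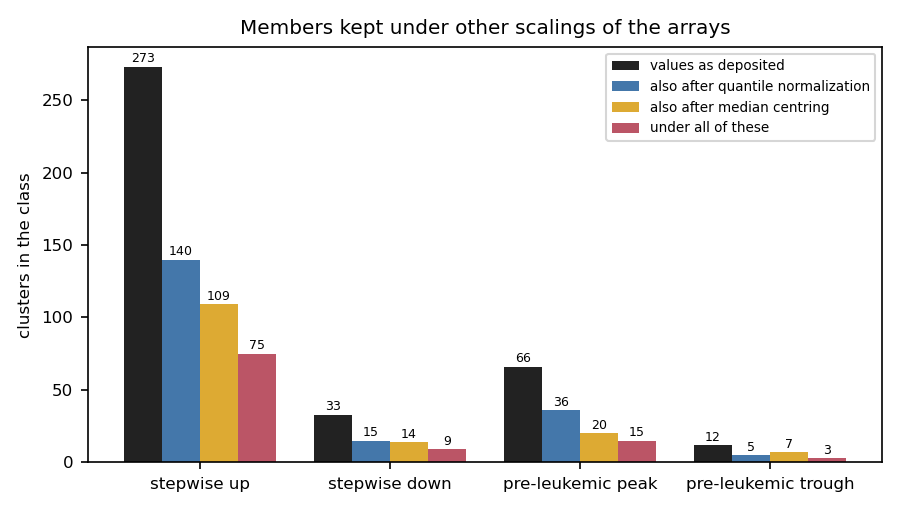
Number of clusters in each class with the values as deposited, and how many of these also met the rule after quantile normalization, after median centring and under every scaling. Of 273 stepwise up members, 75 met the rule under every scaling, and of 66 peaks 15 did.

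Thymocyte and epithelial markers were present in the tissue as labelled. The T-cell receptor subunit gene Cd3e averaged 12.4 ± 0.10 in wild-type, 12.3 ± 0.05 in pre-leukemic and 12.5 ± 0.11 in tumor arrays (SD, n = 4 each). Summed linear intensities of 16 genes of CD4 and CD8 double-positive thymocytes were 49928 to 52122 in wild-type, 43820 to 53473 in pre-leukemic and 21954 to 29831 in tumor arrays. The 19 genes of cortical thymic epithelium summed to 34574 to 38989, 37293 to 40633 and 4555 to 6024 in the same order. The 16 adipocyte genes summed to 12534 to 21129, 4498 to 24949 and 2477 to 4116, and the 9 erythroid genes to 3044 to 6619, 3258 to 6994 and 2065 to 2747. Pre-leukemic replicate 3 stood apart in adipocyte genes: Ucp1, the uncoupling protein of brown fat, read 8.15 on it and 10.86 to 11.46 on the other pre-leukemic arrays, and Adipoq, the adipocyte hormone, 7.37 against 9.37 to 10.40. The part of such cells in the position of that array was not tested. In whole organs a lower share of cells of a type and less RNA in each such cell cannot be told apart.

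The first step was the smaller one for nearly all ordered members. Stepwise up members were higher in pre-leukemic than in wild-type thymus by a median of 0.18 log2 units and higher in tumor than in pre-leukemic thymus by 0.43, against 0.04 and 0.02 over all clusters. Stepwise down members were lower by 0.22 and then by 0.49 at the median. The first step was smaller than the second in 264 of 273 stepwise up and 32 of 33 stepwise down members, and in 11771 of all 17829 clusters. Tumor arrays of stepwise up members spread more, with a median SD of 0.14 against 0.05 in wild-type and 0.07 in pre-leukemic arrays. A wider spread needs a larger step for the groups to be separate, so the rule itself favours a larger second step. As a share of the whole way from wild type to tumor, the pre-leukemic mean stood at a median of 29.0% for stepwise up (quartiles 22.6% and 37.5%, range 5.19% to 74.7%) and 30.3% for stepwise down (quartiles 24.6% and 36.0%). Only 18 stepwise up and 5 stepwise down members differed by 1.25-fold or more at the first step, against 607 of all clusters. By the tumor stage 40 stepwise up and 8 stepwise down members stood at least 2-fold from wild type, against 855 of all clusters.

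**Figure D2:**
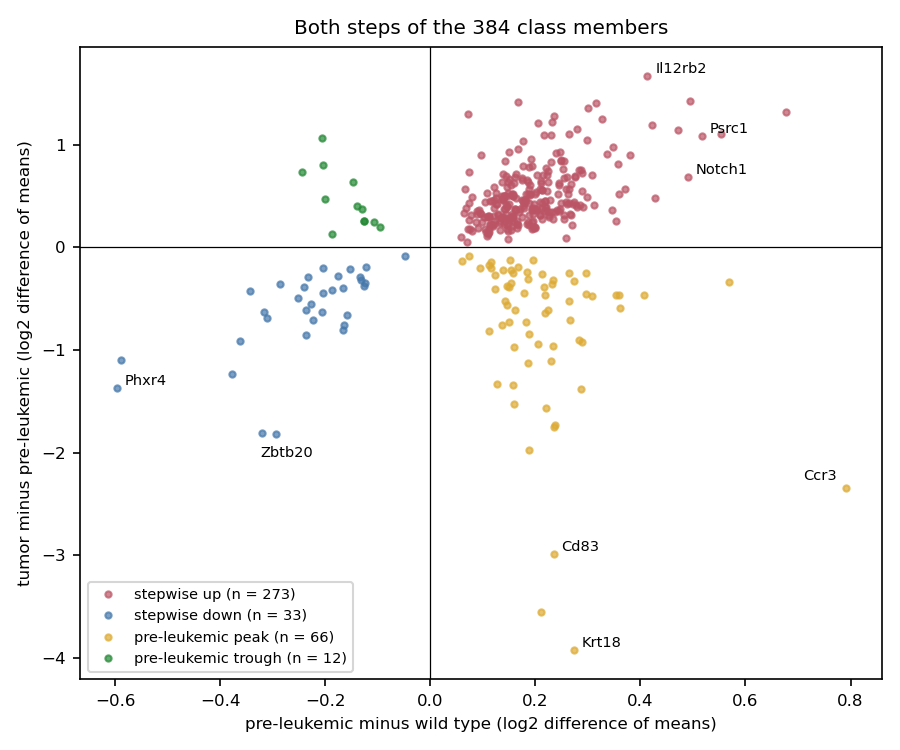
Difference of means at the first step (pre-leukemic minus wild type, x axis, log2) against that at the second step (tumor minus pre-leukemic, y axis, log2) for each of the 384 members, coloured by class. The axes have different scales: Ccr3 is farthest along the x axis at 0.79, and Krt18 lowest on the y axis at −3.93.

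The rule places every pre-leukemic pool between the other groups, so only the distance covered is described here. Relative to the wild-type mean, the median stepwise up member was at 0.17, 0.22, 0.15 and 0.18 log2 units on pre-leukemic replicates 1 to 4, and at 0.63, 0.52, 0.56 and 0.72 on the tumors. For stepwise down members the pre-leukemic pools stood at −0.21, −0.30, −0.12 and −0.19 and the tumors at −0.79, −0.64, −0.76 and −0.90. Pre-leukemic replicate 2 was farthest along and replicate 3 least far in both directions.

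**Figure D3:**
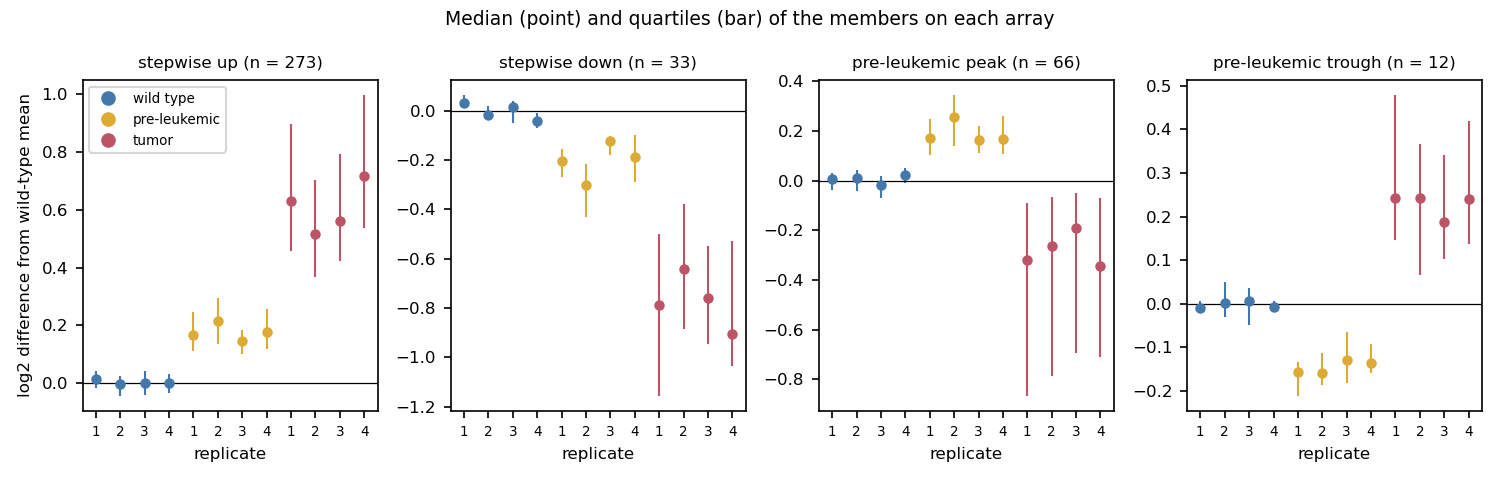
Median (point) and quartiles (bar) of the members of each class on each of the 12 arrays, as log2 difference from the wild-type mean of the same cluster. Pre-leukemic medians of the stepwise up class lie between 0.15 and 0.22, and tumor medians between 0.52 and 0.72.

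Of the 651 clusters with pre-leukemic arrays above all wild-type arrays, 273 (41.9%) were higher still in every tumor, 66 (10.1%) were lower again in every tumor, and in 312 (47.9%) the tumor and pre-leukemic arrays overlapped. Of the 139 below wild type, 33 (23.7%) were lower still, 12 (8.63%) were higher again and 94 (67.6%) overlapped. Over all clusters, 11.6% had every tumor above and 10.2% every tumor below the pre-leukemic arrays. These shares follow in part from the rules, because the pre-leukemic arrays enter both steps.

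The members were spread over the range of expression. Mean levels over the 12 arrays had a median of 8.93 for stepwise up, 8.30 for stepwise down, 8.0 for peaks and 8.20 for troughs, against 7.62 over all clusters. The 780 clusters of olfactory receptor genes, which thymus is not known to express, had a median of 4.70 and a 95th percentile of 6.85. Below that percentile lay 9 of the 273 stepwise up members, 8 of 33 stepwise down, 16 of 66 peaks and 4 of 12 troughs, against 6460 of all 17829 clusters. Members named at such levels carry less information.

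With the values as deposited, the list of ribosome-making genes had the largest share of its genes in the stepwise up class. After median centring that share was larger for nucleotide synthesis, at 26.1% against 15.6%. Of 32 measured genes of ribosome biogenesis and related Myc targets, 10 were stepwise up (31.3%), against 241 of 15223 named genes (1.58%). They were Nop2, Nop14, Nop16, Bop1, Pes1, Polr1a, Tsr1, Mybbp1a, Odc1 and Cdk4. Across the whole list 12 of 32 genes had pre-leukemic arrays above wild type, against 573 of 15223 named genes. Of the 22 genes of the list outside the stepwise classes, limma called 17 higher and 0 lower in tumor than wild type at an adjusted p under 0.05, against 15.2% higher and 15% lower of the 14957 named genes outside them (all clusters: 16.2% and 14.5%). The lists were read with results of these data known, and these counts describe them without a test of the list. The count of stepwise up members was 8 after quantile normalization and 5 after median centring, but none of the 10 stayed in the class under every scaling. It was 15 without pre-leukemic replicate 3 and 12 without replicates 1 and 2, when 399 and 571 of all named genes were stepwise up.

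Promoter sequences are shown for 2 of these genes because a 6-base E-box, CACGTG, the site of basic helix-loop-helix proteins such as Myc with Max, lies before their start. Each run is the 250 bases before the RefSeq start on the plus strand of GRCm38.p6, with the E-boxes in capitals. Cdk4, the kinase that drives entry into S phase, has 4 of them in chr10:127063285-127063534 and Nop2, a methyltransferase of ribosomal RNA, has 1 in chr6:125131633-125131882.
Cdk4: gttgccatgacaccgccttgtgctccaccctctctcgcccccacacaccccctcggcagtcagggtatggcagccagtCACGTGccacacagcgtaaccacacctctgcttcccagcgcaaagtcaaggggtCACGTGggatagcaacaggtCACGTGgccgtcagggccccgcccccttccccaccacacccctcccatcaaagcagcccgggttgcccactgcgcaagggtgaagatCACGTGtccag
Nop2: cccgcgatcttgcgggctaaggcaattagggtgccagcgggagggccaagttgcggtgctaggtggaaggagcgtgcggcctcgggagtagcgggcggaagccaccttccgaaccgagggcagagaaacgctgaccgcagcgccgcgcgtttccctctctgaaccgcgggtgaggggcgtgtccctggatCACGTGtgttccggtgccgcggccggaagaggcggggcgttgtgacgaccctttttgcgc

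Over the class as a whole, windows of 300 bases (250 before and 50 after the start) were found in the RefSeq table for 203 of the 241 named stepwise up genes. The letters CACGTG, which read the same on either strand, occurred in 35 of them (17.2%) and in 1235 of the 12203 named genes with a window (10.1%). The same letters occurred in 4 of 22 stepwise down (18.2%), 4 of 50 peak (8%) and 2 of 7 trough genes (28.6%) with a window. An E2F motif, GCGGGAAA on either strand, occurred in 8 stepwise up genes (3.94%) against 1.81% of all. It occurred in 2 peak genes (4%) and in 0 stepwise down and 0 trough genes. A motif of the Notch partner RBPJ, GTGGGAA, occurred in 5.42% of stepwise up genes against 7.25% of all. Its share was 4.55% in stepwise down, 10% in peak and 28.6% in trough genes. All of these motifs were searched on both strands, a gene with several windows counted once, and the E-box can overlap either of the other motifs. A match describes these letters and is not a binding site.

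Nop2 read 8.89, 8.81, 8.79 and 8.90 in wild-type, 9.11, 9.12, 8.92 and 9.09 in pre-leukemic and 9.89, 9.53, 9.92 and 9.74 in tumor arrays. Its groups were separate, with pre-leukemic replicate 3 close to the wild-type range. Cdk4 read 12.74, 12.71, 12.69 and 12.66, then 12.81, 12.80, 12.87 and 12.86, then 13.17, 13.02, 13.00 and 13.16 in the same order. Its whole difference from wild type to tumor was 1.31-fold on a high level, with little spread inside any group. Mybbp1a, a nucleolar protein that binds Myb, stood at 9.33 ± 0.06, 9.58 ± 0.10 and 10.43 ± 0.23 (SD, n = 4), and its tumors averaged 2.14-fold over wild type. Tsr1, a factor of small-subunit maturation, was nearly all second step. It stood at 8.56 ± 0.03, 8.65 ± 0.03 and 9.55 ± 0.14, so that 9.64% of the way to the tumor mean was covered at the pre-leukemic stage.

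Cytosolic ribosomal protein genes, many of which the array measures only through clusters with several symbols, had 3 of 17 measured members in the class (17.6%, all named genes 1.58%): Rpl22, Rps24 and Rplp0. Rpl22, a ribosomal protein whose loss is known from T-cell leukemia, read 9.64, 9.65, 9.71 and 9.67 in wild-type, 9.75, 9.76, 9.83 and 9.84 in pre-leukemic and 10.25, 9.96, 10.05 and 10.22 in tumor arrays. The groups were separate although tumor exceeded wild type only 1.37-fold. Both clusters of Rplp0, the stalk protein of the large subunit, were in the class, with tumor over wild type at 0.43 and 0.48 log2 units. Rps24 was in the class through a cluster with a mean of 12.07 over all arrays. Another cluster of Rps24, with a mean of 6.88, was in no class, with tumor minus wild type at −0.02 log2 units. Ribosomal protein genes have many processed copies in the genome, so probes may read several loci. None of the 3 genes stayed in the class under every scaling. Without pre-leukemic replicates 1 and 2, 7 genes of the list were in it, when 642 of all 17829 clusters were.

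Enzymes of nucleotide synthesis gave counts that moved little with the scaling. Of 23 measured genes 5 were stepwise up (21.7%, all named genes 1.58%): Cad, Ctps, Ppat, Gart and Adsl. The count was 5 after quantile normalization and 6 after median centring. Pre-leukemic arrays were above wild type for 10 of the 23 (43.5%, all named genes 3.76%), and for 10 and 9 under these scalings. Of the 18 outside the stepwise classes limma called 13 higher (72.2%) and 1 lower (5.56%) in tumor than wild type. Over named genes outside these classes the shares were 15.2% and 15%. Without pre-leukemic replicates 1 and 2 the stepwise up genes of the list numbered 10, when 642 of all 17829 clusters were stepwise up. Cad carries the first 3 activities of pyrimidine synthesis. It read 8.60, 8.46, 8.64 and 8.57 in wild-type, 8.75, 8.93, 8.66 and 8.89 in pre-leukemic and 9.78, 9.55, 9.76 and 9.81 in tumor arrays. The tumors were well clear, 2.23-fold over wild type, while pre-leukemic replicate 3 lay just above the highest wild-type array. Gart, a purine synthesis enzyme with 3 activities, read 9.64, 9.53, 9.60 and 9.59, then 9.85, 9.93, 9.73 and 9.91, then 10.46, 10.21, 10.32 and 10.51. It and Ppat, the first committed enzyme of purine synthesis, were in the class under every scaling. Adsl, which acts later in the purine pathway, stood at 9.47 ± 0.07, 9.68 ± 0.09 and 10.30 ± 0.23.

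The 5 further nucleotide genes with pre-leukemic arrays above wild type, Umps, Dctpp1, Tk1, Nme1 and Nme4, had tumors that overlapped the pre-leukemic arrays. In the neighbouring serine and one-carbon list 2 of 12 genes were stepwise up (16.7%, all named genes 1.58%). Psat1, an enzyme of serine synthesis, stood at 10.20 ± 0.05, 10.36 ± 0.03 and 11.04 ± 0.12, and Ahcy, which removes the by-product of methylation reactions, at 11.38 ± 0.11, 11.68 ± 0.10 and 12.07 ± 0.14. Both left the class after median centring. Without pre-leukemic replicate 3, 5 of the 12 genes were in it, when 455 of all 17829 clusters were.

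Of the replication genes separated at the first step, most had tumors that overlapped the pre-leukemic arrays. Of 43 measured genes of licensing and the replisome 18 had pre-leukemic arrays above wild type (41.9%, all named genes 3.76%) and 0 had them below. Only 6 of these were stepwise up (14% of the list, all named genes 1.58%): Orc1, Rfc5, Prim2, Wdhd1, Chaf1a and Chaf1b. In the other 12, Mcm2, Mcm3, Mcm10, Cdc6, Cdc45, Gins2, Rfc3, Pold1, Pold2, Rpa2, Timeless and Clspn, tumors overlapped the pre-leukemic arrays. The count above wild type was 14 after quantile normalization and 10 after median centring. Of the 37 outside the stepwise classes limma called 24 higher (64.9%) and 0 lower in tumor than wild type. Over named genes outside these classes the shares were 15.2% and 15%. Without pre-leukemic replicates 1 and 2, 10 of the 43 were stepwise up, when 642 of all 17829 clusters were.

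Rfc5, a subunit of the loader of the sliding clamp, read 10.20, 10.28, 10.07 and 10.22 in wild-type, 10.41, 10.49, 10.42 and 10.49 in pre-leukemic and 10.94, 10.64, 10.90 and 11.02 in tumor arrays. It was in the class under every scaling. Prim2, the large subunit of primase, read 10.37, 10.36, 10.32 and 10.33, then 10.49, 10.53, 10.50 and 10.56, then 10.90, 10.93, 11.04 and 11.05. It too stayed in the class under every scaling, with SDs of 0.02, 0.04 and 0.08. Chaf1b, a subunit of the factor that loads histones behind the fork, stood at 9.18 ± 0.05, 9.40 ± 0.07 and 10.04 ± 0.24 and left the class after median centring.

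Mcm4, the gene that carries the allele, and its partner Mcm2 were in no class. Mcm4 read 10.78, 10.71, 10.64 and 10.76 in wild-type, 10.72, 10.86, 10.76 and 10.92 in pre-leukemic and 11.03, 10.85, 11.09 and 11.13 in tumor arrays, so neighbouring groups overlapped. The allele is a substitution, and the transcript level does not check the genotype labels. Mcm2, another subunit of the same helicase, read 10.70, 10.69, 10.60 and 10.72, then 10.88, 11.13, 10.95 and 11.03, then 11.30, 11.09, 11.28 and 11.45. Its pre-leukemic arrays were clear of wild type, and tumor replicate 2 fell inside the pre-leukemic range.

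Genes of the DNA damage response gave 4 stepwise up members of 28 (14.3%, all named genes 1.58%): Brca2, Fanca, Exo1 and Parp1. The count was 10 without pre-leukemic replicates 1 and 2, when 642 of all 17829 clusters were stepwise up. It was 2 and 1 after quantile normalization and median centring. Exo1, an exonuclease of mismatch and break repair, stood at 8.27 ± 0.07, 8.53 ± 0.09 and 8.84 ± 0.12, with 44.7% of the way covered at the first step, and it was in the class under every scaling. Parp1, which marks DNA breaks with ADP-ribose chains, stood at 9.05 ± 0.04, 9.19 ± 0.10 and 9.78 ± 0.24 and left it under both other scalings. Brca2, a factor of DNA break repair, stood at 8.0 ± 0.07, 8.19 ± 0.14 and 8.76 ± 0.29. The checkpoint kinase gene Chek1, Brca1 and Xrcc1 had pre-leukemic arrays above wild type and tumors that overlapped them.

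Targets of p53, the transcription factor that responds to DNA damage, split between classes. Of 23 measured targets 2 were stepwise up (8.7%, all named genes 1.58%), Zmat3 and Sesn2, both under every scaling. Another 3 were pre-leukemic peaks (13%, all named genes 0.401%), Phlda3, Tnfrsf10b and Dcxr, none of them under every scaling. Pre-leukemic arrays were above wild type for 5 of the 23, and for 10 without pre-leukemic replicate 3, when 1310 of all named genes were (8.61%, against 3.76% with it). In that setting 4 of the 23 had pre-leukemic arrays below wild type, as did 1407 of all 17829 clusters. Of these 4 targets 3 were stepwise down, when 372 of all clusters were. Zmat3, an RNA-binding protein, read 7.50, 7.45, 7.47 and 7.37 in wild-type, 7.80, 7.83, 7.69 and 7.91 in pre-leukemic and 8.33, 8.76, 8.5 and 8.87 in tumor arrays. The groups were well apart, and tumors averaged 2.24-fold over wild type. Sesn2, a stress protein that restrains mTORC1 and that also answers to Atf4, stood at 6.89 ± 0.06, 7.18 ± 0.12 and 7.59 ± 0.23. Phlda3, an inhibitor of Akt, stood at 8.48 ± 0.07, 8.66 ± 0.11 and 8.35 ± 0.10, and Tnfrsf10b, the mouse death receptor for Trail, at 7.34 ± 0.04, 7.49 ± 0.04 and 7.11 ± 0.16.

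**Figure D4:**
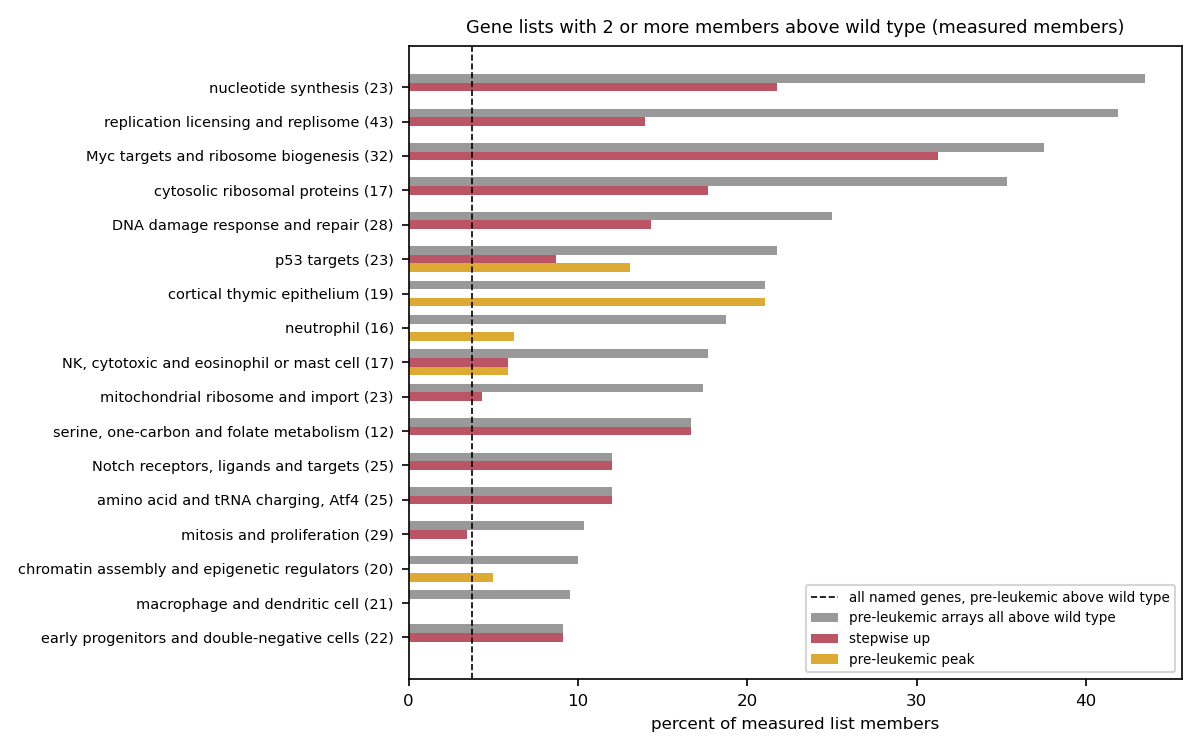
Percent of the measured genes of each list (number in brackets) whose pre-leukemic arrays all lay above wild type (grey), and of those that were stepwise up (red) or a pre-leukemic peak (yellow); lists with at least 2 genes above wild type are drawn. The dashed line is the 3.76% of all named genes above wild type, and replication and nucleotide synthesis reach 41.9% and 43.5%.

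Among the receptors of the Notch pathway, Notch1 and Notch3 were stepwise up. Notch1, the receptor whose signal commits precursors to the T lineage, read 10.19, 10.07, 10.19 and 10.14 in wild-type, 10.56, 10.95, 10.34 and 10.69 in pre-leukemic and 11.00, 11.62, 11.26 and 11.42 in tumor arrays. Pre-leukemic replicate 2 nearly reached the lowest tumor, and the pre-leukemic mean covered 41.7% of the way. Notch3, itself a target of Notch1 in thymocytes, read 8.48, 8.40, 8.51 and 8.5, then 8.95, 8.93, 8.52 and 8.84, then 9.02, 9.97, 9.85 and 10.04. It was in the class only narrowly, since pre-leukemic replicate 3 lay just above wild type and tumor replicate 1 just above the pre-leukemic arrays. Maml3, a coactivator of the Notch complex, stood at 7.09 ± 0.04, 7.30 ± 0.12 and 7.86 ± 0.31.

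These were 3 of 25 measured genes of the Notch list. The share of stepwise up genes was 1.58% over all named genes. No gene of that list was a peak, a trough or stepwise down. These classes held 0.401%, 0.0723% and 0.164% of all named genes, so their absence from 25 genes says little. Of the other 22 genes of the Notch list limma called 8 higher (36.4%) and 4 lower (18.2%) in tumor than wild type. Over named genes outside the stepwise classes the shares were 15.2% and 15%. Notch1 and Notch3 left the class after quantile normalization and Maml3 after median centring. The summed level of 22 genes of early progenitors and double-negative cells, a list that holds Notch1 and Notch3 too, was 9221 to 10052 in wild-type, 9548 to 12043 in pre-leukemic and 16396 to 20594 in tumor arrays. A linear sum is weighted toward strongly expressed genes. The median gene of that list differed by 0.05 log2 units between tumor and wild type. Of its 20 genes outside the stepwise classes limma called 4 higher (20%) and 6 lower (30%). Whether a share of such cells moved the 3 genes was not tested.

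Myc itself fell short of the class because of a single array. It read 10.31, 10.35, 10.30 and 10.41 in wild-type, 10.80, 10.69, 10.26 and 10.68 in pre-leukemic and 11.51, 11.51, 11.61 and 11.83 in tumor arrays. Pre-leukemic replicate 3 lay below all wild-type arrays, while the other pre-leukemic arrays lay between the groups. Ikzf1, which encodes the tumor suppressor Ikaros, read 11.25, 11.29, 11.18 and 11.08, then 10.69, 10.65, 11.26 and 11.09, then 10.06, 9.94, 9.94 and 9.77. Its tumors were below all other arrays, but pre-leukemic replicates 3 and 4 lay inside the wild-type range, so it was not stepwise down. No gene of the T-ALL oncogene list (27 measured) was in any class. Over all named genes 1.58% were stepwise up, 0.164% stepwise down, 0.401% peaks and 0.0723% troughs, so an empty list of this size says little.

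The largest steps belonged mostly to genes outside these pathways. Psrc1, a microtubule-associated protein of the mitotic spindle and a p53-regulated gene, read 8.25, 8.29, 8.15 and 8.20 in wild-type, 8.69, 9.05, 8.47 and 8.75 in pre-leukemic and 9.57, 9.81, 9.92 and 9.97 in tumor arrays. Both of its clusters were in the class under every scaling. Il12rb2, the signalling chain of the interleukin-12 receptor, read 8.30, 8.27, 8.19 and 8.19, then 8.48, 8.72, 8.58 and 8.82, then 10.69, 10.35, 10.01 and 10.24. Its tumors averaged 4.24-fold over wild type, the largest such ratio in the class, with 19.8% of the way covered at the first step.

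Uaca, a regulator of apoptosis, stood at 6.95 ± 0.05, 7.44 ± 0.27 and 8.87 ± 0.66, with a wide spread among the tumors, from 8.17 to 9.74. Zfp704, a zinc-finger protein, stood at 8.29 ± 0.06, 8.61 ± 0.14 and 10.02 ± 0.35. Zdhhc2, a palmitoyltransferase, stood at 8.97 ± 0.09, 9.40 ± 0.19 and 10.59 ± 0.13, and Dglucy, a D-glutamate cyclase, at 7.31 ± 0.07, 7.78 ± 0.24 and 8.92 ± 0.14. All of these 4 genes were in the class under every scaling. Spats2, at 8.01 ± 0.06, 8.39 ± 0.16 and 9.29 ± 0.19, and Mcoln2, a lysosomal cation channel, at 7.59 ± 0.02, 7.95 ± 0.18 and 8.46 ± 0.32, were as well. Elfn2, at 6.96 ± 0.09, 7.26 ± 0.20 and 8.63 ± 0.65, left the class under both other scalings. Olfr418 passed the rule at 3.62 ± 0.08, 4.05 ± 0.16 and 4.53 ± 0.22, which is below the median of its own gene family.

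**Figure D5:**
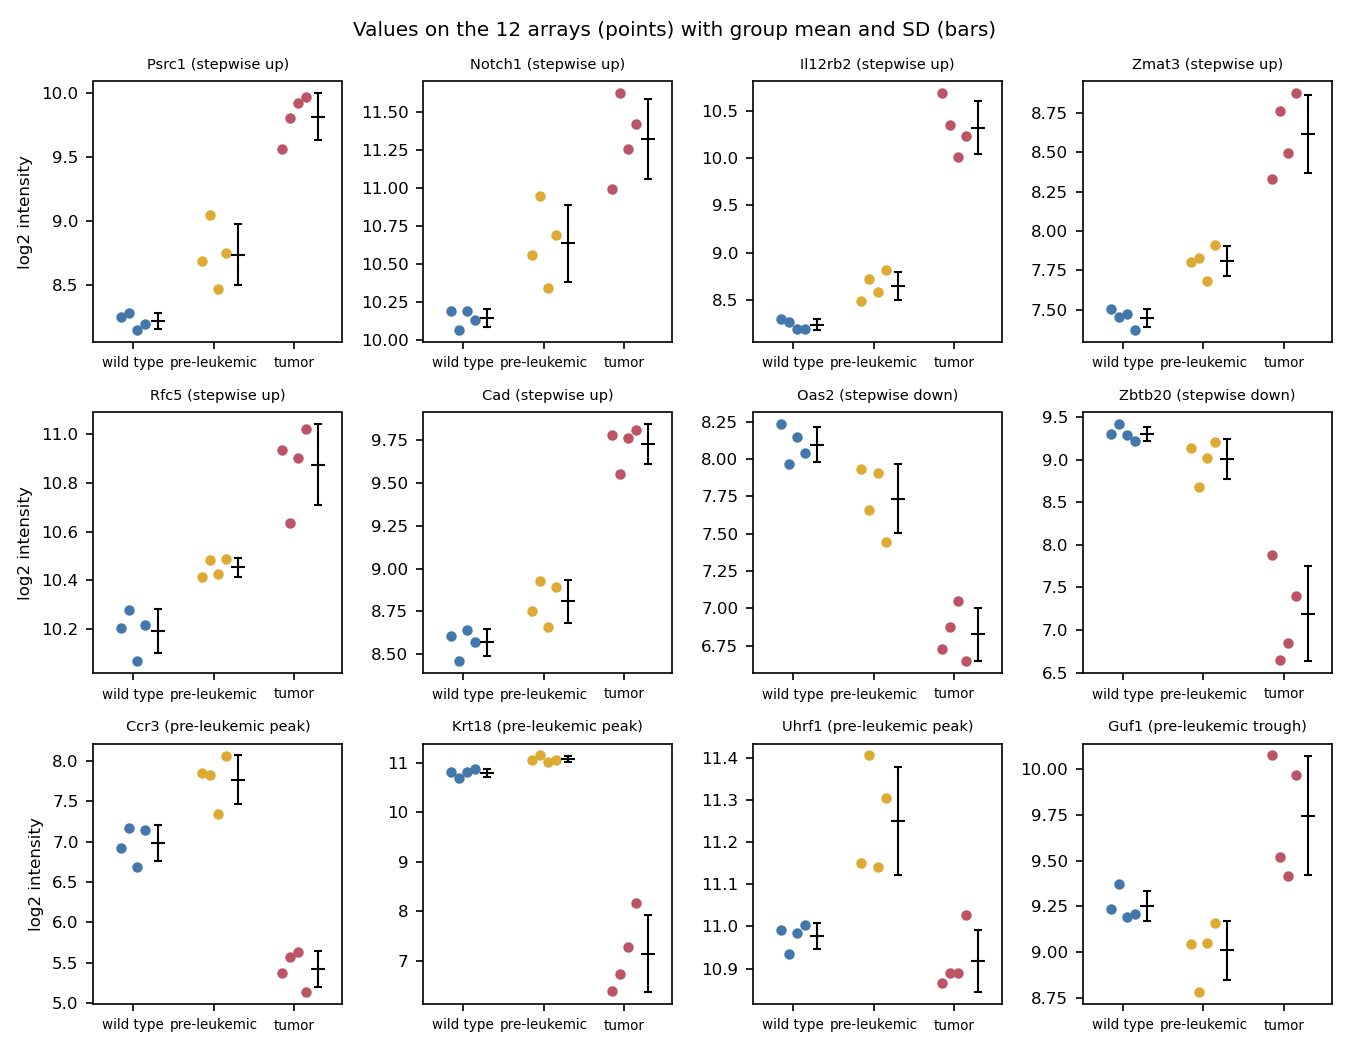
Values of 12 members on the 12 arrays as log2 intensity, with each group's mean and SD (bars, n = 4); the y axes differ between panels and do not start at 0. Psrc1, Notch1, Il12rb2, Zmat3, Rfc5 and Cad are higher at each step, Oas2 and Zbtb20 lower, and Ccr3, Krt18 and Uhrf1 are highest and Guf1 lowest in pre-leukemic thymus.

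Gzma, the granzyme of cytotoxic cells, was the stepwise up member of the 17 measured genes of natural killer cells, cytotoxic cells, eosinophils and mast cells. It read 9.30, 9.43, 9.24 and 9.39 in wild-type, 9.71, 9.89, 9.53 and 9.52 in pre-leukemic and 10.98, 10.80, 10.96 and 10.92 in tumor arrays, 2.98-fold higher in tumor than in wild type. The list as a whole, Gzma and the peak Ccr3 included, summed to 2461 to 2684, 2806 to 3156 and 3139 to 3714. Pre-leukemic arrays lay above wild type in that sum, which is not separate from these 2 genes. The median gene of the list differed by −0.003 log2 units between tumor and wild type. Of the 16 genes other than Gzma limma called 1 higher (6.25%) and 5 lower (31.2%). Over named genes outside the stepwise classes these shares were 15.2% and 15%. Eomes, a transcription factor of natural killer and memory T cells, had pre-leukemic arrays above wild type and tumors that overlapped them. The part of such cells in the values of Gzma was not tested.

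Single members came from several other lists. Tpi1, the glycolytic triose phosphate isomerase, stood at 10.64 ± 0.05, 10.87 ± 0.14 and 11.69 ± 0.19. It was the only stepwise up gene of 23 in the glycolysis and hypoxia list (4.35%, all named genes 1.58%). Of the other 22 limma called 17 higher (77.3%) and 0 lower in tumor than wild type. Over named genes outside the stepwise classes the shares were 15.2% and 15%. Without pre-leukemic replicate 3, 7 of the 23 were stepwise up, when 455 of all 17829 clusters were. Slc7a1, the carrier of arginine and lysine, stood at 9.28 ± 0.03, 9.47 ± 0.13 and 9.99 ± 0.17, and Mars1, which charges the methionine tRNA, at 8.77 ± 0.06, 8.91 ± 0.01 and 9.41 ± 0.09. These and Sesn2 were 3 of 25 genes of amino acid supply and Atf4 (12%). Aurka, a kinase of the mitotic spindle, at 9.84 ± 0.07, 9.99 ± 0.06 and 10.21 ± 0.08, was 1 of 29 mitosis genes (3.45%). Cct3, a subunit of the cytosolic chaperonin, stood at 11.25 ± 0.05, 11.36 ± 0.07 and 11.67 ± 0.11, and Timm9, a chaperone of mitochondrial import, at 8.75 ± 0.07, 8.91 ± 0.03 and 9.29 ± 0.19. Aurka and Cct3 left the class under both other scalings, Tpi1, Mars1 and Timm9 after median centring, and Slc7a1 after quantile normalization. Lists with no stepwise up gene included oxidative phosphorylation (27 measured), mature T cells (22), proximal T-cell receptor signalling (25) and Bcl2 family genes (19). With 1.58% of all named genes in the class, a list of this size can be empty without differing from other genes. Together the 38 lists held 42 of the 241 named stepwise up genes (17.4%) and 4.95% of all named genes.

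Stepwise down members were few and belonged to hardly any list with all arrays in place. Without pre-leukemic replicate 3 the class held 320 of 15223 genes (2.1% of all named genes). Among them were 8 of 16 double-positive thymocyte genes, 8 of 22 mature T-cell genes, 6 of 25 genes of proximal T-cell receptor signalling and 4 of 17 genes of medullary thymic epithelium. Oas2, an interferon-induced sensor of double-stranded RNA, was 1 of 23 genes of the interferon list and the only one in a class. It read 8.23, 7.97, 8.15 and 8.04 in wild-type, 7.93, 7.66, 7.90 and 7.44 in pre-leukemic and 6.73, 6.87, 7.05 and 6.65 in tumor arrays, 2.41-fold lower in tumor. It met the rule under every scaling. Of the other 22 interferon genes limma called 15 lower (68.2%) and 0 higher in tumor than wild type. Over named genes outside the stepwise classes these shares were 15% and 15.2%. Interferon genes in the class numbered 2 after median centring and 7 without pre-leukemic replicate 3. Without that array 11 of the 23 had pre-leukemic arrays below wild type, as did 1407 of all 17829 clusters.

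Zbtb20, a zinc-finger repressor, read 9.30, 9.41, 9.29 and 9.22, then 9.14, 8.68, 9.02 and 9.21, then 7.88, 6.65, 6.84 and 7.40. Pre-leukemic replicate 4 was just below the lowest wild-type array, and only 13.9% of the way was covered at the first step. Rabgap1l, a GTPase-activating protein of membrane traffic, read 9.36, 9.38, 9.37 and 9.23, then 8.90, 8.81, 9.19 and 9.16, then 7.49, 6.97, 6.95 and 7.41. Its tumors were 4.37-fold below wild type, the largest ratio in the class. Phxr4, a transcript named for its repeats, read 8.69, 8.33, 8.34 and 8.19, then 8.0, 7.53, 7.77 and 7.87, then 6.0, 6.89, 6.41 and 6.37. It had the largest first step of the class, a mean difference of −0.60 log2 units.

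Osmr, the receptor of oncostatin M, stood at 8.44 ± 0.05, 8.21 ± 0.18 and 7.35 ± 0.20, and with Oas2, Zbtb20, Rabgap1l and Phxr4 it was in the class under every scaling. Gdpd3, a lipid phosphodiesterase, stood at 11.45 ± 0.13, 11.08 ± 0.17 and 9.84 ± 0.99, with tumors from 8.5 to 10.81. Slc9a9, an endosomal sodium and proton exchanger, stood at 11.01 ± 0.04, 10.78 ± 0.10 and 10.38 ± 0.29. Weakly measured members were Ccr6, a chemokine receptor, at 5.89 ± 0.11, 5.55 ± 0.17 and 5.12 ± 0.27, Rassf6 at 5.45 ± 0.08, 5.20 ± 0.10 and 4.71 ± 0.23, and Scgb1a1, a secretory protein of airway cells, at 4.59 ± 0.12, 4.30 ± 0.15 and 3.94 ± 0.17. All 3 lie under the 95th percentile of the olfactory receptors.

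Transcripts that peaked in the pre-leukemic thymus lay mostly below wild type in the tumors. Of the 66 peaks, 61 had a tumor mean below the wild-type mean, at a median difference of −0.25 log2 units against 0.07 over all clusters. In limma's comparison of tumor with wild type (adjusted p under 0.05 over all 17829 clusters) 32 of the 66 were called lower, 0 higher and 34 were not called, and 39 had an unadjusted p under 0.05. The background was 14.5% of all clusters called lower and 16.2% called higher. The direction is partly set by the rule, since a tumor level above wild type by more than the first step would put a cluster outside the class. The first step of the peaks was small, 0.19 log2 units at the median, so there was little room for a called rise.

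Cortical thymic epithelium supplied 4 of the peaks. Of 19 measured genes of these cells Krt8, Krt18, Pax1 and Cd83 were in the class (21.1%, all named genes 0.401%), Krt18 and Cd83 under every scaling. Limma called all 19 lower in tumor than wild type, against 15% of the named genes outside the stepwise classes. Krt18, a keratin of cortical epithelial cells, read 10.81, 10.70, 10.80 and 10.88 in wild-type, 11.06, 11.15, 11.02 and 11.06 in pre-leukemic and 6.39, 6.75, 7.29 and 8.16 in tumor arrays. Pre-leukemic thymus was 1.21-fold above wild type, while tumors were 12.6-fold below wild type (log2 difference −3.65, SE 0.32, limma adjusted p = 6.92e-05). Its partner Krt8 stood at 11.73 ± 0.06, 11.94 ± 0.12 and 8.38 ± 0.73, 10.1-fold lower in tumor (limma adjusted p = 7.84e-05).

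Cd83, which cortical epithelium needs to support CD4 T cells and which dendritic cells carry too, read 9.65, 9.73, 9.78 and 9.70, then 9.90, 10.03, 10.03 and 9.84, then 6.90, 6.80, 7.25 and 6.87. Its tumors were 6.76-fold below wild type with little spread (limma adjusted p = 1.31e-06). Pax1, a transcription factor of the thymic epithelial lineage, stood at 9.49 ± 0.08, 9.71 ± 0.05 and 8.14 ± 0.33 (limma adjusted p = 0.000221 for tumor against wild type). The summed level of the 19 genes, given above, overlapped between wild-type and pre-leukemic arrays and was far lower in tumors, and the part of the epithelial share in these 4 genes was not tested.

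Ccr3, the eotaxin receptor of eosinophils, had the largest peak. It read 6.92, 7.17, 6.69 and 7.14 in wild-type, 7.85, 7.82, 7.35 and 8.06 in pre-leukemic and 5.37, 5.57, 5.63 and 5.13 in tumor arrays. Pre-leukemic thymus was 1.73-fold above wild type, and tumors were 2.94-fold below it (limma adjusted p = 7.60e-05). Its pattern held under every scaling. Ccr3 was weakly measured, however. Its mean over all arrays, 6.73, lay below the upper level of the olfactory receptors given above, 6.85, so its values carry less information. In the same list Gzma was stepwise up, so members of that list lay on different sides of wild type in the tumors. Ctsg, cathepsin G of neutrophil granules, read 6.40, 6.20, 6.28 and 6.39, then 6.77, 6.85, 6.41 and 6.69, then 5.98, 6.19, 6.19 and 5.98, and was not called between tumor and wild type (limma adjusted p = 0.0676). The 16 neutrophil genes summed to 2627 to 3077 in wild-type, 2189 to 4437 in pre-leukemic and 1567 to 2229 in tumor arrays, and 2 more of them, Prtn3 and Mmp9, had pre-leukemic arrays above wild type. With Ctsg these were 18.8% of the list, against 3.76% of all named genes. Without pre-leukemic replicate 3, 6 of the 16 were above wild type and 4 of these were peaks. In that setting 306 of all clusters were peaks and 1487 had pre-leukemic arrays above wild type. Whether neutrophils account for the level of Ctsg was not tested. The mean of Ctsg over all arrays, 6.36, lay below 6.85 too.

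Uhrf1, which carries DNA methylation through replication, peaked from a nearly equal level in the other groups. It read 10.99, 10.93, 10.98 and 11.00 in wild-type, 11.15, 11.41, 11.14 and 11.31 in pre-leukemic and 10.87, 10.89, 10.89 and 11.03 in tumor arrays. Tumor and wild type differed by −0.06 log2 units (SE 0.065, limma adjusted p = 0.514), and the gene left the class after median centring. Dact1 and Dact2, relatives that bind Dishevelled in Wnt signalling, were both peaks but differed in the tumors. Dact1 stood at 6.45 ± 0.13, 6.85 ± 0.20 and 6.39 ± 0.22 (limma adjusted p = 0.730 for tumor against wild type), and Dact2 at 8.60 ± 0.07, 8.89 ± 0.11 and 7.51 ± 0.17 (limma adjusted p = 6.44e-05). That difference between the 2 genes was not tested, and neither stayed in the class under every scaling. Dact1 was weakly measured, with a mean over all arrays of 6.56, below the upper level of the olfactory receptors, 6.85.

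Abcc3, a transporter of conjugated organic anions, stood at 7.42 ± 0.06, 7.78 ± 0.11 and 7.32 ± 0.09, and Tmem26 at 7.55 ± 0.03, 7.85 ± 0.18 and 7.37 ± 0.15. Both were peaks under every scaling and neither was called between tumor and wild type (limma adjusted p = 0.293 and 0.160). Dgkeos, listed with the double-positive thymocyte genes, stood at 7.63 ± 0.07, 7.87 ± 0.10 and 6.13 ± 0.39, 2.82-fold lower in tumor than wild type (limma adjusted p = 0.000248). It is named as an opposite-strand transcript, and overlap with the signal of its partner was not tested. Catsperz, a sperm calcium-channel subunit, was 1.55-fold lower in tumor (limma adjusted p = 0.00696) at a level near that of the olfactory receptors, 6.53 ± 0.10 in wild type. Cldn13, Myl10 and Olfr1265 peaked at means of 6.52, 6.65 and 4.26, likewise at the low end, with none of them called between tumor and wild type. Dcxr, a carbonyl reductase, stood at 7.86 ± 0.04, 8.01 ± 0.10 and 7.66 ± 0.07, and was called lower in tumor only narrowly (limma adjusted p = 0.0481). It was no longer called when any 1 wild-type replicate, or tumor replicate 1, 3 or 4, was left out.

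The 12 troughs were the smallest class and had the smallest first steps, a median of −0.14 log2 units, with none reaching 1.25-fold. Tumor means were above wild type in 11 of the 12, and limma called 5 higher, 0 lower and 7 neither, with 6 at an unadjusted p under 0.05. Over all clusters 16.2% were called higher and 14.5% lower. Without any 1 of wild-type replicates 1 to 3 only 2 troughs were called, and without wild-type replicate 4 there were 3. Here too the rule limits the opposite direction. None of the 11 named trough genes was on any of the lists, which held 4.95% of all named genes. For so few genes that count says little.

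Guf1, a GTPase of mitochondrial translation, read 9.24, 9.38, 9.19 and 9.21 in wild-type, 9.04, 8.78, 9.05 and 9.16 in pre-leukemic and 10.08, 9.52, 9.42 and 9.97 in tumor arrays. Pre-leukemic replicate 4 lay just below the lowest wild-type array, and tumors were 1.41-fold above wild type (limma adjusted p = 0.0326). Hspb3, a small heat-shock protein of muscle, stood at 6.13 ± 0.05, 5.93 ± 0.16 and 6.73 ± 0.25 and was 1.51-fold higher in tumor (limma adjusted p = 0.00503). Ppid, a cyclophilin that works with Hsp90, stood at 11.07 ± 0.02, 10.94 ± 0.05 and 11.31 ± 0.07 (limma adjusted p = 0.0188), and Harbi1, a protein derived from a transposase, at 6.51 ± 0.07, 6.37 ± 0.03 and 6.77 ± 0.13 (limma adjusted p = 0.0390). With Guf1 these last 2 were the troughs that met the rule under every scaling. Hspb3 and Harbi1 were weakly measured. Their means over all arrays, 6.26 and 6.55, lay below the upper level of the olfactory receptors, 6.85. The calls of Guf1, Ppid and Harbi1 between tumor and wild type were fragile. Each of these 3 calls was lost without any 1 of wild-type replicates 1 to 3. The calls of Guf1 and Harbi1 were also lost without wild-type replicate 4 and without tumor replicate 4, that of Guf1 without tumor replicate 1, and that of Harbi1 without tumor replicate 2 or 3.

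Rap1gds1, an exchange factor for small GTPases, was the fifth gene called, 1.41-fold higher in tumor at a limma adjusted p of 0.00153. It was also the trough nearest to the edge of the rule. Thbs4, a matrix glycoprotein, Nptn, a neural adhesion molecule, and Pyroxd1, an oxidoreductase, were not called. Npc2, the lysosomal cholesterol carrier, and Kcnip4, a potassium-channel partner, were not called either. The limma adjusted p of these genes was 0.0688 to 0.475. Kcnip4 was weakly measured, with a mean over all arrays of 5.45, below the upper level of the olfactory receptors, 6.85.

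Membership was close-run for many clusters. The gap between the nearest arrays of neighbouring groups was at least 0.1 log2 units for 28 of 273 stepwise up members, 2 of 33 stepwise down, 8 of 66 peaks and 0 of 12 troughs, and its median was 0.034, 0.022, 0.030 and 0.019. Trim28, a corepressor, was the last stepwise up member inside, with a gap of 0.000130, and Tada2a was the first outside, with a gap of −0.000526, which is an overlap. At the other edges Scgb1a1 was inside with 0.00445 and Akirin2 outside with −9.27e-05 for stepwise down, Alkbh4 and Kcnh2 at 0.00177 and −0.000492 for peaks, and Rap1gds1 and Naa25 at 0.000646 and −0.000734 for troughs.

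Names were available for most members. Single symbols were held by 245 stepwise up, 25 stepwise down, 61 peak and 11 trough clusters. The rest carried several symbols or none and were counted but not named. Of 13 symbols in a class that have more than 1 cluster on the array, 3 had all of them in the class, Psrc1, Rplp0 and Msto1, and 10 had at least 1 cluster outside it.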

How the data were processed

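Total RNA of 12 pools was amplified, biotin-labelled and read on Affymetrix Mouse Exon 1.0 ST arrays, per the labels' protocols. The authors deposited 1 normalized linear intensity per transcript cluster and array, with software and normalization not given in the sources used here. Array medians lay between 186 and 210, and single values between 6.17 and 24310. Log2 was taken with no pseudocount and no filter. An array has no read depth, and 4 arrays per group limit the precision. Another 24 columns matched no sample label and were not used.

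Symbols came from the platform annotation (15618 clusters with 1 symbol, 1370 with several, 841 with none). Sequences came from RefSeq tables (GRCm38.p6). The build of the array design was not matched, so no other coordinates are given.

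Tumor and wild type were compared over all 17829 clusters with limma 3.58.1 in R 4.3.3 (lmFit, eBayes, two-sided, Benjamini-Hochberg adjusted p under 0.05), on the 8 arrays concerned. The script was tested on simulated data. Classes were counted in Python 3.11.15 with pandas 2.3.3.

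The classes and the 38 gene lists were chosen with earlier results of these data known. Named are, per class, the 10 members with the largest smaller difference between adjacent means and the 5 (stepwise) or up to 6 (peaks, troughs) with the largest change from wild type to tumor, up to 3 members per list and class, the members at each edge, and Mcm4, Mcm2, Notch1, Ikzf1 and Myc. Other names complete the counts of a list.

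Alternatives covered array scaling, low levels, the replicate number, pseudocount, fit, threshold and leaving out arrays.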

Additional observations from a re-analysis of the deposited data

Results flagged for a closer look

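Among the named genes, 237 groups of 4 arrays were examined for an array far from the other 3, and 13 groups (5.49%) held one, close to the 1 in 20 that chance gives. An array counted as far when its gap to the nearest other, as a share of the group's range, passed Dixon's 95% critical value. Tumor replicate 4 stood high for Spats2 (9.57, others 9.17 to 9.22), Mcoln2 (8.94, others 8.26 to 8.35) and Uhrf1 (11.03, others 10.87 to 10.89), and low for Dcxr (7.55, others 7.68 to 7.71). The other tumor arrays concerned were replicate 3 for Abcc3 (7.45, others 7.26 to 7.28) and replicate 1 for Tmem26 (7.15, others 7.43 to 7.46).

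In pre-leukemic thymus, replicate 3 was low for Nop2 (8.92, others 9.09 to 9.12) and for Hspb3 (5.69, others 5.99 to 6.04). Replicate 1 was high for Rps24 (12.17, others 11.98 to 11.99), and replicate 2 for Dcxr (8.16, others 7.95 to 7.98). In wild-type thymus, replicate 3 was low for Timm9 (8.64, others 8.77 to 8.80) and Gdpd3 (11.26, others 11.51 to 11.52), and replicate 4 was low for Rabgap1l (9.23, others 9.36 to 9.38).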

How the results depend on the processing

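Class counts and limma's counts both depended on the processing. Quantile normalization gave 67 stepwise down clusters and 29 troughs, and median centring 143 stepwise up clusters and 26 peaks, in place of 33, 12, 273 and 66. Stepwise up made up 89.2% of stepwise clusters as deposited, 75.4% and 83.1% under these scalings, and 55.0% without pre-leukemic replicate 3. Leaving out an array can only add members: 277 to 455 stepwise up, 34 to 372 stepwise down, 71 to 306 peaks and 12 to 200 troughs were found when 1 array was left out. Without the 4 arrays of narrowest range the counts were 1014, 220, 353 and 282, and without pre-leukemic replicates 1 and 2, an alternative chosen after seeing the data, 642, 110, 283 and 249. A gap of at least 0.1 left 28, 2, 8 and 0.

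Arrays with the same replicate number did not deviate together (12 pairs, correlations −0.554 to 0.423, 3 over 0.1), so the numbers do not pair the samples. With the replicate block 63 stepwise down clusters, 102 peaks and 27 troughs were counted, and 2 troughs were called higher in tumor in place of 5. Asking for a posterior probability over 95% as well cut the clusters higher in tumor to 351 and the clusters lower in tumor to 535, from 2881 and 2593, with 14 of the 32 peaks lower and 0 troughs higher. Leaving out 1 array gave 2091 to 2954 clusters higher, 2025 to 2591 lower, 26 to 31 peaks lower and 2 to 5 troughs higher. Leaving out any of the 4 wild-type replicates brought the troughs called higher to 2 or 3.

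No named gene changed direction between tumor and wild type. Set against an alternative, these differences kept their direction and, where tested, their call in 983 instances, lost the call in 29 and gained one in 9. The lost calls were those of Dcxr, Guf1, Harbi1 and Ppid, under median centring, the replicate block and left-out arrays. The posterior criterion, not counted there, removed 18 of the 32 peak calls and all 5 trough calls. The causes were not tested.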

Other observations

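Some stepwise up members outside the gene lists are described here because they were noticed after their values were seen. No test was run on them. Tnfrsf8 (CD30), a receptor of activated lymphocytes, read 8.08 to 8.25 in wild-type, 8.41 to 8.54 in pre-leukemic and 9.39 to 9.70 in tumor arrays, and Tnfsf8, its ligand, read 5.60 to 5.78, 5.82 to 6.09 and 6.64 to 7.04. The receptor was in the class under every scaling, and the ligand left it after quantile normalization. Il9r, a cytokine receptor that promotes growth of T-cell lymphoma lines, read 7.31 to 7.46, 7.47 to 7.84 and 8.49 to 9.90, with tumor replicate 1 the highest.

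Some other members were noticed in the same way, with no list or background behind them. Tumors exceeded wild type 1.51-fold for Ung, which removes uracil from DNA, 1.56-fold for Mpg, which removes alkylated bases, and 1.53-fold for Apex1, an endonuclease, and all 3 were in the class under every scaling. Smo, a membrane signalling protein, stood 0.96 log2 units and Ptch1, a receptor, 0.57 above wild type in tumors, with first steps of 0.28 and 0.08. Ptch1 left the class after median centring.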
